A study of Homo sapiens with 12 samples.

Results

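MV4-11 cells are a human line from acute myeloid leukemia with an internal tandem duplication in FLT3 (FLT3-ITD). The comparison here is between MV4-11 cells given mitoxantrone-liposome together with gilteritinib (Com) and cells given mitoxantrone-liposome alone (Mito-Lipo), and covers 6 of the 12 RNA-seq libraries of the series. Com cells received 20 nM mitoxantrone plus 20 nM gilteritinib for 24 h and Mito-Lipo cells received 20 nM mitoxantrone for 24 h, so the comparison asks what gilteritinib adds in cells that already have the other drug. The sample labels call the first drug mitoxantrone, and the name of the study is kept here. The other 6 libraries, 3 of DMSO and 3 of gilteritinib alone at 25 nM for 24 h, are used to show the levels without mitoxantrone-liposome. All 4 groups are labelled wild-type for genotype and are 1 cell line, and each holds 3 libraries. No source says whether the replicates were separate cultures, so the p-values measure the spread between these libraries, which may be technical.

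FLT3 is a receptor tyrosine kinase of early blood progenitors. The internal tandem duplication makes it active without its ligand, and it then signals through STAT5, the RAS-ERK pathway and PI3K-AKT to genes for survival and growth. Gilteritinib is a kinase inhibitor of FLT3 and AXL. Mitoxantrone traps topoisomerase II on DNA and causes double-strand breaks, which call up the ATM, ATR and p53 responses and slow passage through S phase.

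The values are FPKM, the fragments of a gene per kilobase of its length, with the depth of the library divided out, and differences are log2(FPKM + 1) in Com minus Mito-Lipo, which understates the change of genes with low FPKM. Same-numbered libraries were compared with each other, because they deviated together from their group means. For replicates 2 and 3 this may only reflect the distance of replicate 1, so their pairing by number is an assumption. Below, 3 values of a group are in the order of replicates 1, 2 and 3. The 6 libraries held 31725003 to 40329606 fragments. Replicate 1 stood apart from replicates 2 and 3 in all 4 groups on the first principal component, which held 41.95% of the variance. All 8 markers of MV4-11 cells were tested, among them FLT3, CD33, MPO, HOXA9 and MEIS1, and their summed level was 843 to 1270 FPKM in Mito-Lipo and 884 to 1690 FPKM in Com. Of T cell, epithelial and fibroblast markers none reached the level needed for a test, with summed levels of at most 0.405 FPKM in Com and 0.364 FPKM in Mito-Lipo. The B cell markers summed to 1.94 to 2.24 FPKM in Com and 1.83 to 3.48 FPKM in Mito-Lipo. The 5 erythroid markers summed to 0.225 to 1.27 FPKM in Com and 1.49 to 3.52 FPKM in Mito-Lipo, and their part in the results was not tested. In RNA from whole cultures, fewer cells of a type and less RNA per cell cannot be told apart.

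FOS and ARID3B were lower with gilteritinib added. These were the 2 of 18574 genes (0.0108%) with an adjusted p under 0.05 (limma, Benjamini-Hochberg), and both fell. Below that threshold the differences were not spread evenly over the genome. At an unadjusted p under 0.05, 1593 genes were lower in Com (8.58% of genes tested) and 668 were higher (3.6%). Their median absolute log2 differences were 0.35 and 0.23. Over the 10506 protein-coding genes tested, to which most listed genes belong, the shares were 8.02% lower and 5.03% higher. The lower genes held listed STAT5 targets and ERK output genes, immediate early genes, cholesterol synthesis and inflammatory genes. The higher genes held DNA replication, nucleotide supply and repair. The split between directions depended on scaling, since 29.5% of these genes were higher in Com as deposited, 40.3% after median-ratio scaling and 51.3% after quantile normalization. The median of all genes lay at -0.04 as deposited. By the fitted value 11056 of the 18574 genes were lower in Com and 7518 higher. Without the replicate number in the fit, 0 genes passed the adjusted threshold. At an unadjusted p under 0.05 there were 1027, of which 765 were lower and 262 higher. Such a threshold passes nearly as many without any difference. List counts below for such alternatives are to be read against those of all genes. All genes gave 1863 lower and 997 higher without Com replicate 1, 974 and 446 without replicate 2, and 1114 and 261 without replicate 3. Without Mito-Lipo replicate 1, 2 or 3 they were 1650 and 1126, 834 and 459, and 1700 and 435. With replicates 2 and 3 only they were 2199 and 1853.

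FOS encodes a subunit of the AP-1 transcription factor and is an immediate early gene that growth factor signaling switches on within minutes (chr14:75278774-75282230, plus strand, GRCh38). Its level was 32.0, 45.4 and 48.1 FPKM in Mito-Lipo and 21.6, 29.5 and 29.5 FPKM in Com. All 3 Com libraries lay below all 3 Mito-Lipo libraries. FOS fell by 0.61 ± 0.05 (SE, n = 3 pairs) on the log2 scale, with an adjusted p of 0.0201 by limma. This SE and those below came from the fit to all 12 libraries, not from the 3 pairs alone. The 3 pairs gave -0.55, -0.60 and -0.69. DMSO cells had 20.8, 32.2 and 33.2 FPKM, and gilteritinib alone left FOS at 21.2, 32.0 and 33.5 FPKM. The adjusted p for FOS was 0.891 without the replicate block, 0.462 with only the 6 libraries compared in the fit, and 0.13 to 0.292 when replicate 2 or replicate 3 of either group was left out.

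ARID3B, a DNA-binding protein of the ARID family, lies at chr15:74541177-74598131 on the plus strand. It had 11.3, 16.02 and 13.7 FPKM in Mito-Lipo and 6.35, 8.08 and 7.70 FPKM in Com. The groups did not overlap, and every Com library was below 9 FPKM. The log2 difference was -0.80 ± 0.08 (SE of the same fit, n = 3 pairs), with an adjusted p of 0.047 by limma, while the mean FPKM fell by 46.1%. DMSO cells had 7.20, 9.28 and 10.01 FPKM and cells with gilteritinib alone 5.34, 8.90 and 7.87 FPKM. The adjusted p was 0.814 without the replicate block, 0.462 with the 6 libraries alone, 0.0533 with a pseudocount of 0.1, 0.075 without the filter on low values and 0.13 to 0.345 without replicate 2 or 3 of either group.

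Groups that do not overlap were seen in 6.11% of genes in the direction of lower Com and in 3.22% in the direction of higher Com. In all, 16 genes had an adjusted p under 0.1, and all 16 were lower in Com. The next after FOS and ARID3B that the naming rule gave were SLC2A5 and PIM2, each at an adjusted p of 0.0509, then VSIG2, EGR1, MYADM, DUSP2, BHLHE40 and WARS, each at 0.0706.

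**Figure D1:**
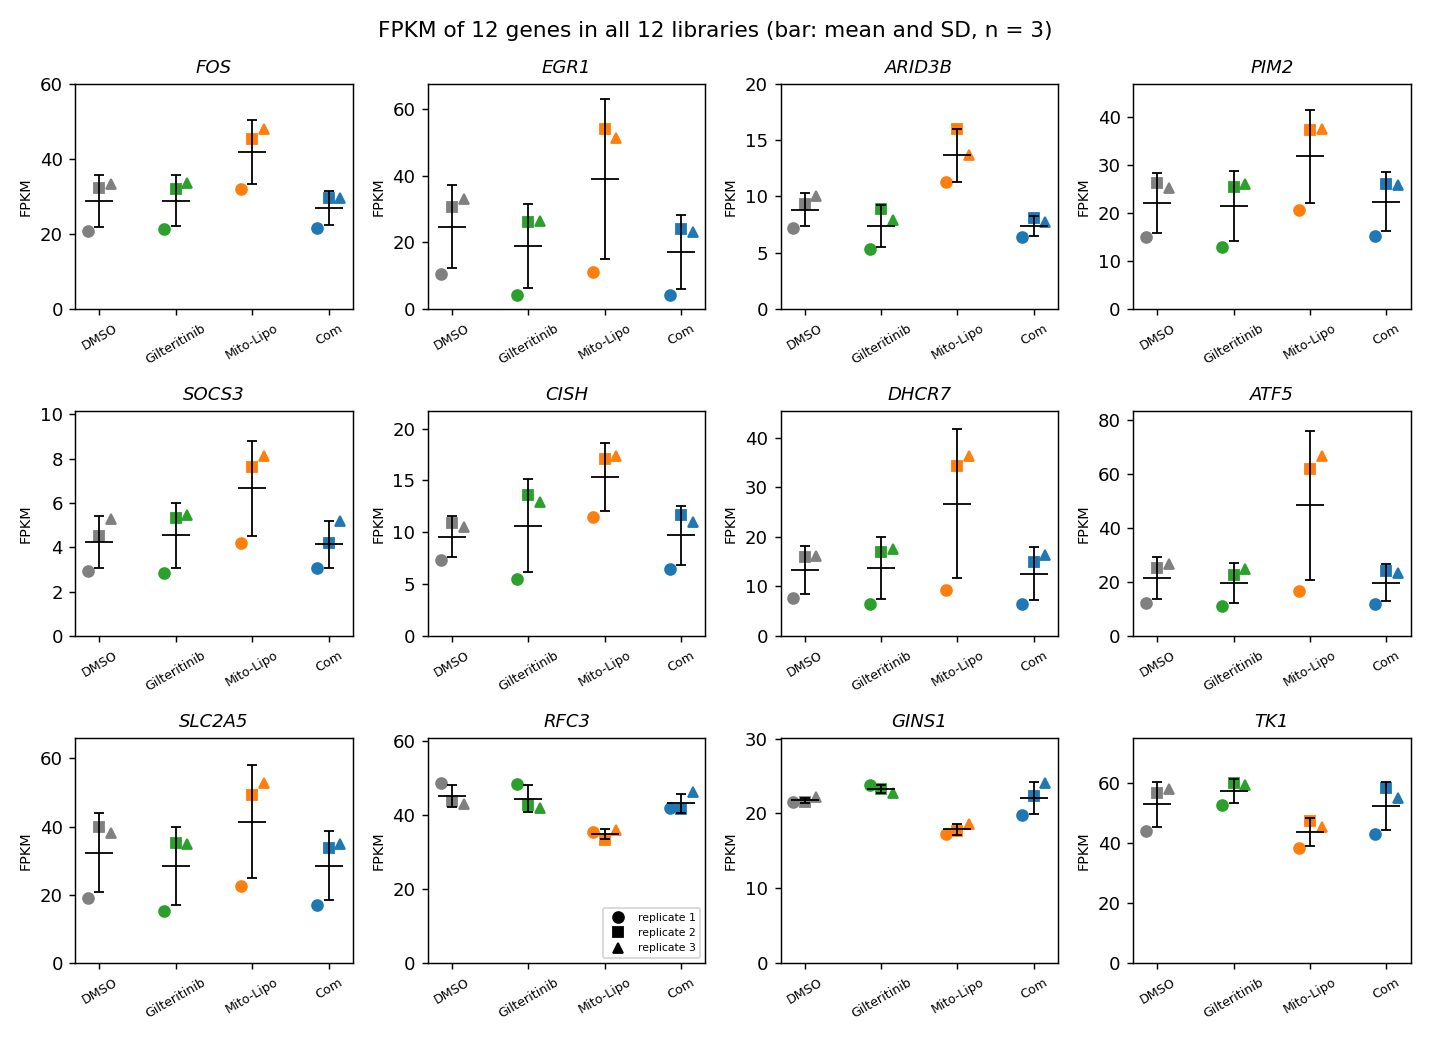
FPKM (y axis, linear from 0) of 12 genes in the 4 groups (x axis); symbols stand for replicates 1, 2 and 3, and the black bars for the mean and SD of 3 libraries. Mito-Lipo is the group that stands apart, highest in the first 9 panels and lowest for RFC3, GINS1 and TK1, and replicate 1 is the lowest library of every group for FOS, EGR1, PIM2 and DHCR7.

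FOS was 1 of 23 immediate early and AP-1 genes tested, the first wave of transcription after a mitogenic signal. Of these, 16 had an unadjusted p under 0.05 and a lower level in Com (69.6%, against 8.58% of all genes) and none a higher one. The median log2 difference was -0.46, against -0.04 over all genes, and the medians of the 3 pairs were -0.18, -0.60 and -0.55. In 22 of 23 genes Mito-Lipo had the highest mean of the 4 groups (95.7%, against 43.2% of all genes). A fit without the replicate block left 5 of the 23 at an unadjusted p under 0.05.

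EGR1, a zinc finger transcription factor induced by ERK through serum response factor, was at 11.2, 54.2 and 51.4 FPKM in Mito-Lipo and 4.30, 23.9 and 23.2 FPKM in Com. The groups overlapped because replicate 1 was low in both, yet each Com library was below its Mito-Lipo partner by a near equal amount, -1.21, -1.15 and -1.11 on the log2 scale. The fitted difference was -1.16 ± 0.15 (SE), with an adjusted p of 0.0706. Gilteritinib alone gave 4.29, 26.0 and 26.3 FPKM against 10.4, 30.6 and 33.0 FPKM in DMSO.

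FOSB, another AP-1 subunit, had 2.68, 6.49 and 5.55 FPKM in Mito-Lipo and 1.33, 2.38 and 2.35 FPKM in Com, with no overlap. EGR3 had 0.258, 18.4 and 16.6 FPKM in Mito-Lipo and 0.0882, 2.73 and 3.15 FPKM in Com, so its difference came from replicates 2 and 3. JUND was the 1 member with a higher fitted value, at 0.34, while JUN was at -0.60 and JUNB at -0.21. The groups did not overlap in 6 of the 23, all lower in Com, against 6.11% of all genes.

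The 250 bases before the RefSeq start sites of FOS and EGR1 are shown because FOS passed the test and EGR1 had the largest difference among the 10 lower genes with the smallest p. They were read from RefSeq for GRCh38.p14, at chr14:75278578-75278827 and chr5:138465229-138465478, both on the plus strand, and are written 5′ to 3′. Capitals mark a CArG box, the binding motif of serum response factor, searched on both strands.
FOS: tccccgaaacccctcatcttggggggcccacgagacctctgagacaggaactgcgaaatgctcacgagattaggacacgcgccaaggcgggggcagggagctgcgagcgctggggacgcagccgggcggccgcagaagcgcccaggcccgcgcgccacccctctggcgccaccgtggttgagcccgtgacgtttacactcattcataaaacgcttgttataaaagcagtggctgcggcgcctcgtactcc
EGR1: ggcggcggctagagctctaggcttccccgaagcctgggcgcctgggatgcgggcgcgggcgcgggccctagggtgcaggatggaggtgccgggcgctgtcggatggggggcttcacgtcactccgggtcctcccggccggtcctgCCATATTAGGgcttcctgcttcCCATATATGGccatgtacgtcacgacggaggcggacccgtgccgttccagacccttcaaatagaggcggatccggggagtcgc
EGR1 held a pair of CArG boxes, at -105 to -96 and at -83 to -74 from the start, and FOS held none of the motifs searched in this window. Of the 18 immediate early genes with a RefSeq window, 2 held a CArG box (11.1%), against 1.44% of 27305 genes. The cyclic AMP response element TGACGTCA was in 4 of the 18 (22.2%), against 2.03% of all genes. A match of letters is a description of the window only.

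The targets of STAT5, a transcription factor that FLT3-ITD activates, were lower in Com in 14 of 14 genes by the fitted value, against 11056 of all 18574. Of the 14, 8 had an unadjusted p under 0.05 (57.1%, against 8.58%). The median log2 difference was -0.23, and the 3 pairs gave -0.34, -0.26 and -0.25, so replicate 1 was no smaller here than replicates 2 and 3. A fit without the replicate block left 1 of the 14 at that threshold, and leaving out Com replicate 3 left 5. By the fitted value 9 of the 14 were lower and 5 higher without Mito-Lipo replicate 1. With replicates 2 and 3 only, 12 were lower and 2 higher.

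PIM2, a serine/threonine kinase that promotes survival and growth, had 20.6, 37.2 and 37.5 FPKM in Mito-Lipo and 15.2, 25.9 and 25.9 FPKM in Com. Each pair was lower in Com by 0.41 to 0.52 on the log2 scale, and the groups overlapped only through Mito-Lipo replicate 1. PIM1, its relative, had 27.7, 95.0 and 100.6 FPKM in Mito-Lipo and 9.19, 56.8 and 56.5 FPKM in Com, a log2 difference of -1.02 ± 0.24 (SE) with an adjusted p of 0.188.

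Gilteritinib alone gave PIM1 levels of 7.75, 63.1 and 66.2 FPKM against 18.5, 58.9 and 60.0 FPKM in DMSO. In that pair of groups PIM1 was lower in replicate 1 and not in replicates 2 and 3, whereas it was lower in Com than in Mito-Lipo in all 3 pairs.

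The feedback inhibitors of cytokine signaling stood in the same direction. SOCS3 had 4.21, 7.64 and 8.13 FPKM in Mito-Lipo and 3.06, 4.18 and 5.17 FPKM in Com, a difference of -0.55 ± 0.09 (SE, adjusted p 0.128). CISH had 11.5, 17.1 and 17.4 FPKM in Mito-Lipo and 6.46, 11.7 and 11.0 FPKM in Com, a difference of -0.62 ± 0.12 (SE, adjusted p 0.14). For both genes each Com library was below its partner, with 1 or more libraries of the groups overlapping. MCL1, an anti-apoptotic protein, was at -0.18 and MYC at -0.05.

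CISH is a classical STAT5 target, and the 250 bases before its RefSeq start (chr3:50611775-50612024, minus strand, GRCh38.p14) are shown with the STAT motif TTCNNNGAA in capitals, 5′ to 3′ on the strand of the gene.
CISH: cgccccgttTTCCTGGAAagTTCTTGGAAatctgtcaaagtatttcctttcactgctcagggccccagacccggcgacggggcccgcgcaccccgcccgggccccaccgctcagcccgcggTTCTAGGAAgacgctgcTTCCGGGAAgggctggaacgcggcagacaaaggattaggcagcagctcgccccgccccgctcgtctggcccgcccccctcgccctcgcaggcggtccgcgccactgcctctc
The motif occurred 4 times, beginning at -241, -230, -129 and -112 from the start. It was in 1 of 9 STAT5 target genes with a RefSeq window (11.1%) and in 8.09% of all genes, so its share in the list was near that of the background. The windows of PIM2 and SOCS3, which had a smaller p than CISH, held none.

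Output of the ERK pathway was measured by 10 genes, among them phosphatases and a Sprouty protein that ERK induces and that hold it back. The level in Com was lower in 9 of 10, with an unadjusted p under 0.05 in 4 (40.0%, against 8.58% of all genes). The median log2 difference was -0.23. DUSP2, a phosphatase of ERK in the nucleus, had 7.68, 9.93 and 9.79 FPKM in Mito-Lipo and 5.52, 6.73 and 6.87 FPKM in Com, with no overlap. DUSP7 had 27.9, 48.6 and 50.7 FPKM in Mito-Lipo and 24.6, 37.8 and 37.2 FPKM in Com. DUSP6, another widely used readout of ERK, went against these, at 7.19, 10.3 and 11.5 FPKM in Mito-Lipo and 7.93, 10.9 and 12.6 FPKM in Com. When the replicate block was omitted, 1 of the 10 had an unadjusted p under 0.05.

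The PI3K and AKT core was divided between the directions. Of its 26 genes 13 were lower and 13 higher in Com, with a median of 0.01. At an unadjusted p under 0.05, 2 were lower and 3 higher (7.69% and 11.5%, against 8.58% and 3.6% of all genes). The counts were 1 and 0 without the replicate block, and 2 and 7 without Mito-Lipo replicate 1. AKT1 had 17.2, 18.8 and 17.9 FPKM in Mito-Lipo and 16.6, 16.5 and 16.3 FPKM in Com, with no overlap and a log2 difference of -0.12 ± 0.07 (SE, adjusted p 0.531). AKT2 was at 31.3, 31.2 and 28.0 FPKM in Mito-Lipo and 27.3, 29.4 and 27.5 FPKM in Com, a difference of -0.10 ± 0.06 (SE, adjusted p 0.498). FLT3 itself had 131.7, 170.7 and 170.0 FPKM in Mito-Lipo and 169.1, 156.9 and 157.9 FPKM in Com, a fitted value of 0.04 ± 0.09 (SE) whose sign turned when replicate 1 was left out. CSF1R, a related receptor of monocytes, was at 18.3, 40.6 and 41.1 FPKM in Mito-Lipo and 17.7, 24.6 and 24.8 FPKM in Com, so its difference lay in replicates 2 and 3.

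**Figure D2:**
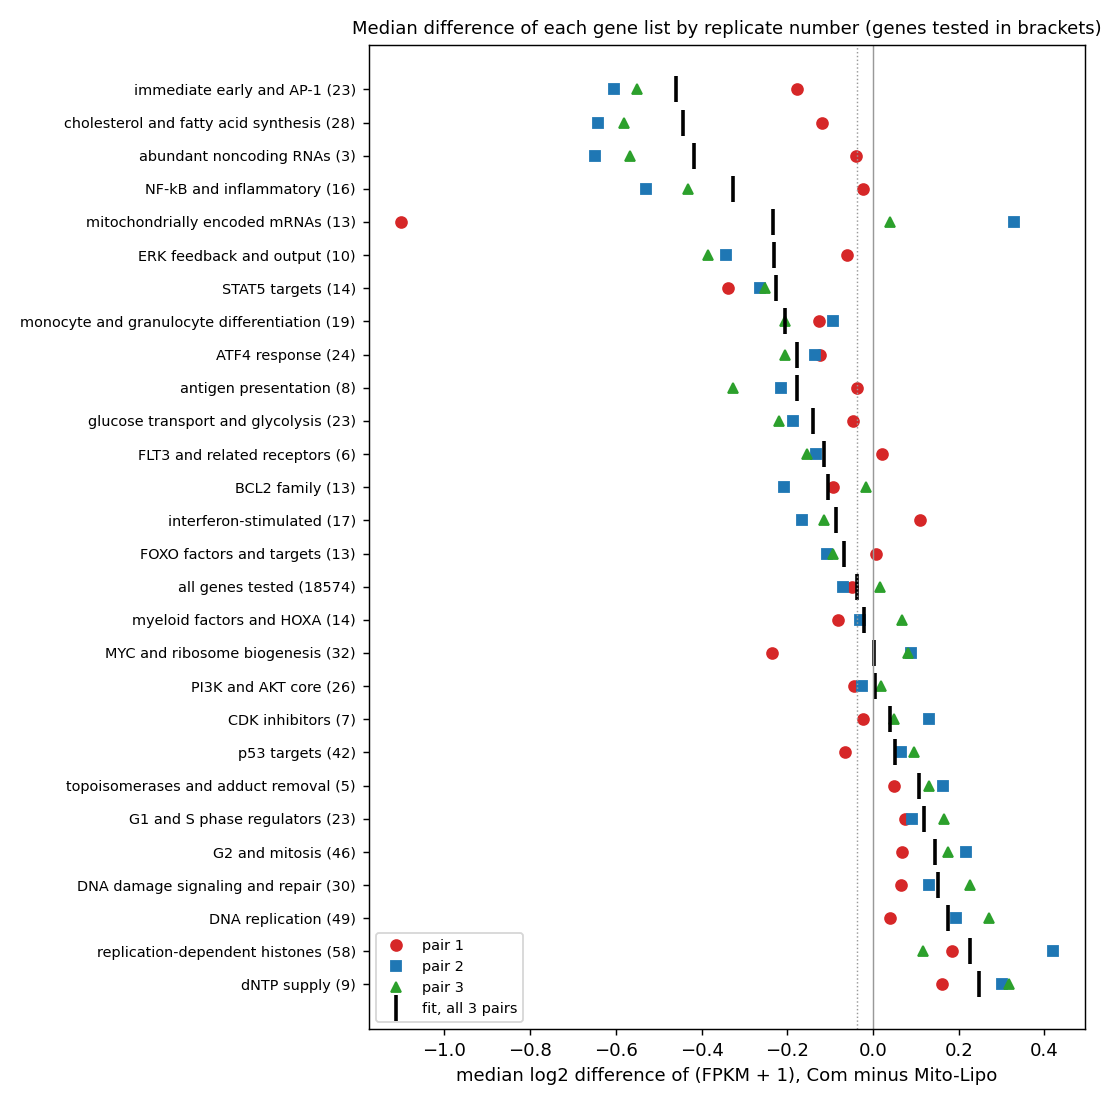
Median log2 difference of FPKM + 1 (Com minus Mito-Lipo, x axis) of each gene list (y axis, number of genes tested in brackets); coloured symbols are the 3 same-numbered pairs, the black bar the fit and the dotted line the median of all 18574 genes. The immediate early and cholesterol lists lie farthest to the left by the fit and DNA replication, dNTP supply and histones to the right in all 3 pairs, with pair 1 nearer to 0 for immediate early, cholesterol and NF-kB genes.

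Cholesterol and fatty acid synthesis was the list with the largest share below the unadjusted threshold among those of more than 5 genes. Its genes are driven by SREBP factors when cells lack sterols. Of 28 tested, 20 were lower in Com at an unadjusted p under 0.05 (71.4%, against 8.58%) and none higher. In 9 of the 28 the groups did not overlap, all lower in Com, against 6.11% of all genes. The median was -0.44, and the 3 pairs gave -0.12, -0.64 and -0.58. Without the replicate block 13 of the 28 had an unadjusted p under 0.05.

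DHCR7, which makes cholesterol from its direct precursor, had 9.33, 34.3 and 36.4 FPKM in Mito-Lipo and 6.39, 14.9 and 16.3 FPKM in Com. Replicate 1 was low in both groups, and each Com library was below its partner. Its difference was -0.91 ± 0.15 (SE, adjusted p 0.131).

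MVK, mevalonate kinase, had 7.53, 8.91 and 8.10 FPKM in Mito-Lipo and 5.14, 4.79 and 5.34 FPKM in Com, with no overlap. HMGCS1, at the entry of the pathway, had 32.2, 86.8 and 89.5 FPKM in Mito-Lipo and 29.8, 28.8 and 32.1 FPKM in Com, without overlap, though its first pair differed by only -0.11. DMSO cells had 42.9, 30.9 and 31.9 FPKM of HMGCS1. SREBF2, the gene of the sterol-sensing factor, was at -0.21, while SREBF1 was at 0.08 and PMVK at 0.09. Mito-Lipo had the highest mean of the 4 groups in 24 of the 28 genes (85.7%, against 43.2%). The sterol motif TCACNCCAC was in 1 of the 21 with a RefSeq window (4.76%), against 1.09% of all genes.

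The ATF4 response, by which cells raise amino acid supply under stress, was lower in 23 of 24 genes, with a median of -0.18. At an unadjusted p under 0.05, 10 of the 24 were lower (41.7%, against 8.58% of all genes). When the block was omitted none of the 24 had an unadjusted p under 0.05, and 5 had without Mito-Lipo replicate 2 or without Mito-Lipo replicate 3. WARS, a tryptophan tRNA synthetase, had 51.0, 87.1 and 93.1 FPKM in Mito-Lipo and 42.8, 63.7 and 66.1 FPKM in Com, a difference of -0.39 ± 0.06 (SE, adjusted p 0.0706). ATF5, a transcription factor of this response, had 16.6, 61.9 and 66.8 FPKM in Mito-Lipo and 11.9, 24.1 and 23.4 FPKM in Com. In both genes every Com library lay below its partner, and for ATF5 the gap was larger in replicates 2 and 3.

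Glucose transport and glycolysis held 23 tested genes, with a median of -0.14. At an unadjusted p under 0.05, 10 of them were lower in Com (43.5%, against 8.58% of all genes) and none higher. SLC2A5, a fructose transporter, had 22.5, 49.3 and 52.8 FPKM in Mito-Lipo and 17.0, 33.8 and 34.9 FPKM in Com, a difference of -0.50 ± 0.06 (SE). PFKP, a phosphofructokinase, had 19.4, 23.1 and 21.6 FPKM in Mito-Lipo and 15.6, 18.9 and 18.1 FPKM in Com, with no overlap. Both genes were lower in each of the 3 pairs. Of the 23, 3 were at that threshold without the replicate block.

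Of 16 NF-kB and inflammatory genes, 7 were lower in Com at an unadjusted p under 0.05 (43.8%, against 8.58% of all genes), and the median was -0.33. ICAM1, an adhesion molecule, had 4.35, 15.8 and 15.9 FPKM in Mito-Lipo and 3.96, 6.36 and 6.33 FPKM in Com. CCL2, a chemokine that attracts monocytes, had 3.04, 52.6 and 55.9 FPKM in Mito-Lipo and 2.97, 16.3 and 17.6 FPKM in Com. In both the first pair was nearly level, and the median of the list in the first pair was -0.02. In the unblocked fit 2 of the 16 had an unadjusted p under 0.05, without Com replicate 2 there were 4, and without Com replicate 3 or Mito-Lipo replicate 2 there were 3.

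Monocyte and granulocyte differentiation genes were mixed, with 5 of 19 lower (26.3%, against 8.58%) and 1 higher (5.26%, against 3.6%) at an unadjusted p under 0.05. The 5 became 1 without the replicate block, against 765 of all 18574 genes lower. They became 3 without Com replicate 3 or Mito-Lipo replicate 3 (against 1114 and 1700). Without Com replicate 1 there were 8 (against 1863), and with replicates 2 and 3 only 9 (against 2199). ITGAM, the integrin CD11b, had 1.27, 4.82 and 4.59 FPKM in Mito-Lipo and 0.916, 1.80 and 1.81 FPKM in Com. LYZ, lysozyme, had 929.7, 493.2 and 530.3 FPKM in Mito-Lipo and 1333, 550.5 and 596.1 FPKM in Com, higher in each pair at an adjusted p of 0.459. GATA2, a progenitor transcription factor, was at 2.34, 14.7 and 15.3 FPKM in Mito-Lipo and 1.82, 6.66 and 6.43 FPKM in Com. It was the 1 of 14 myeloid factors and HOXA genes lower at the unadjusted threshold (7.14%, against 8.58% of all genes). There 0 were lower without the replicate block and 3 without Com replicate 1.

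**Figure D3:**
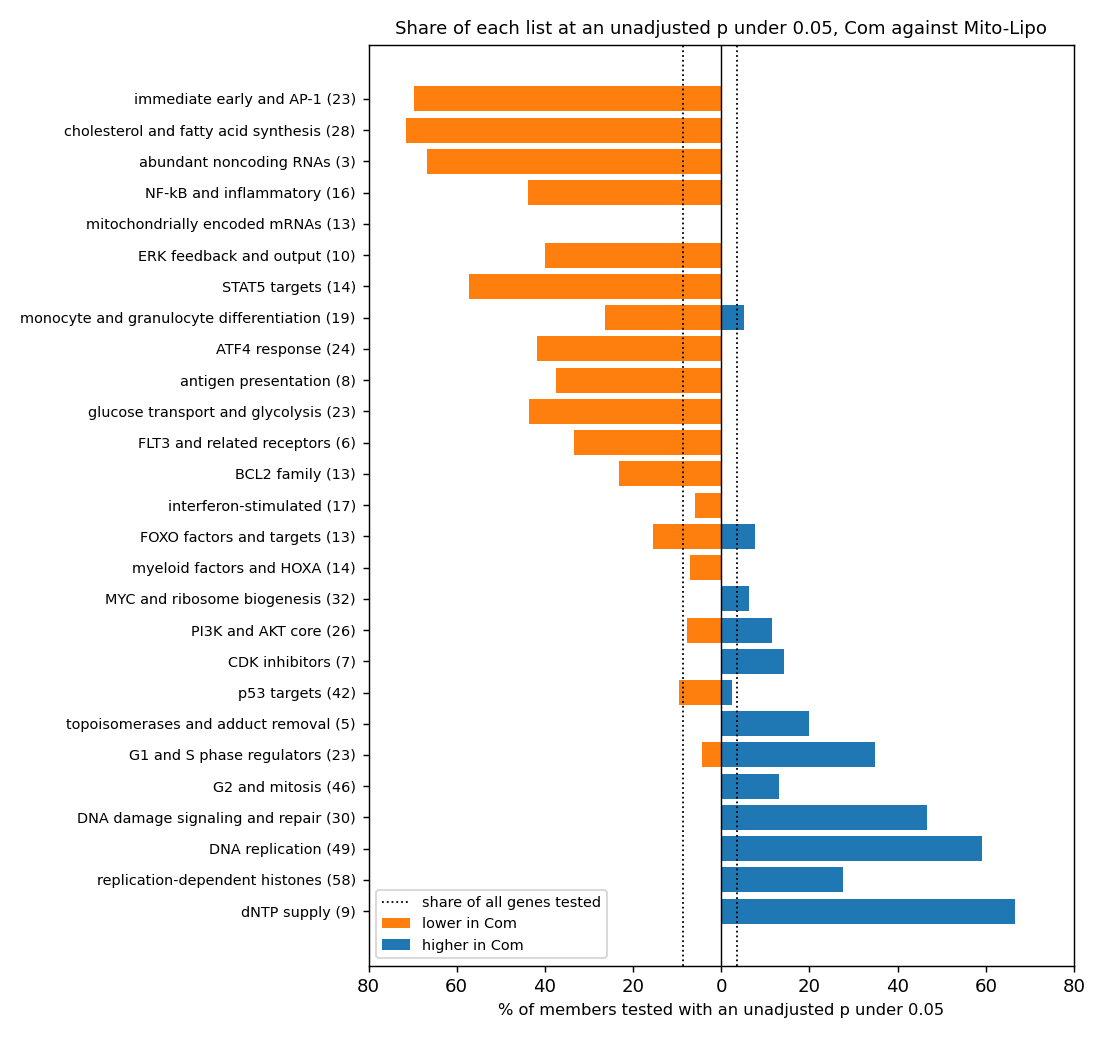
Share of each list with an unadjusted p under 0.05 (x axis, % of members tested; orange to the left is lower and blue to the right is higher in Com), with the shares over all genes tested, 8.58% and 3.6%, as dotted lines. The share of lower genes is 71.4% for cholesterol and fatty acid synthesis and 69.6% for immediate early genes, and that of higher genes is 66.7% for dNTP supply and 59.2% for DNA replication.

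Genes of DNA replication went the other way. Of 49 tested, 48 were higher in Com and 29 had an unadjusted p under 0.05 (59.2%, against 3.6% of all genes), with none lower at that threshold. The differences were small, with a median of 0.18 and values from -0.02 for POLD2 to 0.40 for DSCC1, and the 3 pairs gave medians of 0.04, 0.19 and 0.27. Without the replicate block 12 of the 49 had an unadjusted p under 0.05, without Com replicate 2 or Mito-Lipo replicate 2 there were 19, and without Com replicate 3 there were 14. In 47 of 49 genes Mito-Lipo had the lowest mean of the 4 groups (95.9%, against 24.0% of all genes).

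RFC3, a subunit of the clamp loader that places PCNA on DNA, had 35.5, 33.2 and 35.9 FPKM in Mito-Lipo and 41.8, 41.6 and 46.2 FPKM in Com. The groups did not overlap, and the log2 difference was 0.30 ± 0.07 (SE, adjusted p 0.178). DMSO cells had 48.6, 43.8 and 42.9 FPKM.

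GINS1, part of the replicative helicase, had 17.3, 17.7 and 18.6 FPKM in Mito-Lipo and 19.9, 22.3 and 24.1 FPKM in Com, again with no overlap. MCM4, a core helicase subunit, had 152.9, 165.0 and 168.8 FPKM in Mito-Lipo and 162.7, 209.3 and 211.6 FPKM in Com. The first Com library of MCM4 lay within the Mito-Lipo range, and each Com library was above its partner. PCNA, the sliding clamp, was at 262.0, 205.6 and 223.4 FPKM in Mito-Lipo and 283.2, 251.7 and 273.7 FPKM in Com.

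The window before the RefSeq start of RFC3 (chr13:33817899-33818148, plus strand, GRCh38.p14) is shown because RFC3 was 1 of the members of the list with the smallest p, and capitals mark an E2F motif, the site type of the factors that switch on S phase genes.
RFC3: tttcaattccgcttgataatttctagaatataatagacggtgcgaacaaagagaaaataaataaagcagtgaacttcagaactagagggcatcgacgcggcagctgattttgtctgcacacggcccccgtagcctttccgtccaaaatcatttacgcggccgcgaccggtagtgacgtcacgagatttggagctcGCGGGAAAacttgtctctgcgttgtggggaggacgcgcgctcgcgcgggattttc
The motif stood at -55 to -48 from the start. GINS1 had a smaller p in this list than RFC3, and its window held no E2F motif. TTTCCCGC or TTTGGCGC, on either strand, was in 14 of the 41 replication genes with a RefSeq window (34.1%), in 2 of 8 for dNTP supply (25.0%), in 2 of 38 for G2 and mitosis (5.26%) and in 2.36% of all genes.

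Nucleotide supply stood beside replication. Of the 9 genes tested 6 were higher at an unadjusted p under 0.05 (66.7%, against 3.6% of all genes), and the median was 0.25. TK1, thymidine kinase, had 38.6, 47.4 and 45.4 FPKM in Mito-Lipo and 43.3, 58.7 and 55.3 FPKM in Com, a difference of 0.25 ± 0.06 (SE, adjusted p 0.18). Each of the 3 TK1 pairs was higher in Com, with overlap between the groups through replicate 1. In the unblocked fit 3 of the 9 had an unadjusted p under 0.05.

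Among 23 regulators of G1 and S phase, 8 were higher (34.8%, against 3.6%) and 1 lower (4.35%, against 8.58%) at an unadjusted p under 0.05. The 8 became 3 without the replicate block or without Com replicate 3, and 4 without Mito-Lipo replicate 2 or 3. CCNE2, a cyclin that starts S phase, had 9.71, 12.03 and 11.8 FPKM in Mito-Lipo and 12.1, 12.6 and 14.4 FPKM in Com, with no overlap. CCND2, a cyclin under STAT5 control, was the lower one, at -0.26. CDK2 had 15.6, 18.7 and 18.9 FPKM in Mito-Lipo and 15.98, 21.1 and 21.8 FPKM in Com, a difference of 0.13 ± 0.06 (SE, adjusted p 0.403). CCNA2, its partner cyclin in S phase, had 53.1, 52.0 and 55.7 FPKM in Mito-Lipo and 57.2, 67.7 and 72.5 FPKM in Com, with no overlap and a difference of 0.28 ± 0.11 (SE, adjusted p 0.371). CCNA1, the cyclin A of germ cells and myeloid cells, was at -0.16 ± 0.14 (SE, adjusted p 0.67).

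G2 and mitosis genes were higher in 45 of 46 by the fitted value, with a median of 0.15 and 6 at an unadjusted p under 0.05 (13.0%, against 3.6%). With replicates 2 and 3 only, 37 of the 46 were higher at an unadjusted p under 0.05, against 1853 of all 18574 genes. There were 28 without Com replicate 1 (against 997). With Com replicate 2 or 3 left out there was 1 of the 46 (against 446 and 261). KIF11, a motor of the spindle, had 26.3, 28.8 and 29.2 FPKM in Mito-Lipo and 31.2, 35.9 and 37.4 FPKM in Com, with no overlap.

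Replication-dependent histones, transcribed in S phase, were higher in 56 of 58, with a median of 0.23 and 16 at an unadjusted p under 0.05 (27.6%, against 3.6%). HIST1H1B, a linker histone, had 713.0, 710.8 and 788.6 FPKM in Mito-Lipo and 901.1, 992.3 and 934.6 FPKM in Com, with no overlap. HIST1H3I had 184.3, 111.0 and 94.6 FPKM in Mito-Lipo and 197.2, 259.5 and 252.9 FPKM in Com. Histone genes share reads with near-identical copies, so the values of single members are uncertain. The 16 became 10 without the replicate block or Mito-Lipo replicate 2 (against 262 and 459 of all 18574 genes higher). They became 25 without Com replicate 1 (against 997), 4 without Com replicate 2 (446) and 6 without Com replicate 3 (261). With replicates 2 and 3 only there were 30 (against 1853).

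DNA damage signaling and repair was higher in 28 of 30 genes, with 14 at an unadjusted p under 0.05 (46.7%, against 3.6%) and a median of 0.15. There were 8 without the replicate block and 7 without Com replicate 3. EXO1, a nuclease of end resection, had 24.5, 27.4 and 28.7 FPKM in Mito-Lipo and 25.8, 35.8 and 36.0 FPKM in Com. BARD1, the partner of BRCA1, had 14.6, 15.6 and 16.2 FPKM in Mito-Lipo and 18.6, 18.9 and 20.3 FPKM in Com, with no overlap. All 5 genes for topoisomerases and the removal of their adducts were higher by the fitted value. Of them 1, TDP2, had an unadjusted p under 0.05 (20.0%, against 3.6%) at a log2 difference of 0.15. The count was 3 without Com replicate 1 and 0 without the replicate block.

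With all 12 libraries and the replicate block in the fit, the shares of p53 targets at the unadjusted threshold were near those of all genes. Of 42 tested, 4 were lower (9.52%, against 8.58%) and 1 higher (2.38%, against 3.6%) at an unadjusted p under 0.05, and the median of 0.05 turned negative without Com replicate 1 (-0.04), Mito-Lipo replicate 2 (-0.03) or Mito-Lipo replicate 3 (-0.05). These counts moved with single libraries, and so did those of all 18574 genes. Without Mito-Lipo replicate 1 there were 9 higher and 4 lower, against 1126 and 1650 of all genes. Without Com replicate 1 there were 1 higher and 7 lower, against 997 and 1863. Without Com replicate 2 the counts were 2 higher and 2 lower, against 446 and 974. With replicates 2 and 3 only they were 13 higher and 8 lower, against 1853 and 2199. Mito-Lipo had the lowest mean of the 4 groups in 0 of the 42 (0.0%, against 24.0% of all genes).

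CDKN1A, the gene of p21 and a main target of p53, had 113.1, 45.4 and 45.1 FPKM in Mito-Lipo and 92.1, 30.1 and 30.7 FPKM in Com. It was lower in each Com library than in its partner, at -0.47 ± 0.28 (SE) and an adjusted p of 0.529, and the groups overlapped through replicate 1. BTG2, an antiproliferative target of p53 that is also an immediate early gene, had 25.2, 42.9 and 43.2 FPKM in Mito-Lipo and 23.8, 16.02 and 16.3 FPKM in Com, with no overlap. MDM2 was at 0.07 and BAX at -0.02.

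Of the BCL2 family, BCL2L11, the pro-apoptotic protein BIM, was lower in Com. It had 18.1, 23.2 and 24.1 FPKM in Mito-Lipo and 13.4, 15.6 and 17.9 FPKM in Com, with no overlap and a difference of -0.45 ± 0.09 (SE, adjusted p 0.14). In the family 3 of 13 were lower at an unadjusted p under 0.05 (23.1%, against 8.58%) and none higher. Without Com replicate 2 or Mito-Lipo replicate 2, 1 was lower. FOXO factors and their targets, which AKT restrains, had 2 of 13 lower (15.4%, against 8.58%) and 1 higher (7.69%, against 3.6%). BCL2L11 is a member of both lists. Of the 13, 4 were lower without Com replicate 1.

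MYC and ribosome biogenesis had 16 genes lower and 16 higher, with a median of 0.00. At an unadjusted p under 0.05, 2 of 32 were higher (6.25%, against 3.6% of all genes and 5.03% of protein-coding genes). The pairs of this list disagreed, with medians of -0.24, 0.09 and 0.08. With replicates 2 and 3 only 30 of the 32 were higher, against 8177 of all 18574 genes. At that threshold 14 were higher, against 1853 of all genes. By the fitted value 26 were lower without Com replicate 2 (against 10353 of all genes) and 24 without Com replicate 3 (11205). Without Com replicate 1, 26 were higher (against 7592). The 7 CDK inhibitors had 1 member higher at an unadjusted p under 0.05 (14.3%, against 3.6%), CDKN2C at 0.40 with a p of 0.04985 by limma. None was higher at that threshold with a pseudocount of 0.1, without the filter or without the trend. The same held without replicate 2 or 3 of either group. The 17 interferon-stimulated genes had 1 lower (5.88%, against 8.58%). The 8 of antigen presentation had 3 lower (37.5%, against 8.58%), among them CIITA at -0.40 and CD74 at -0.25. FLT3 and the receptors related to it, 6 genes tested, had 2 lower (33.3%, against 8.58%), CSF1R at -0.48 and CSF2RB at -0.23. CSF1R is also a member of the monocyte and granulocyte list. Without the replicate block the lower counts of these 3 lists were 0, 1 and 0, against 765 of all 18574 genes. They were 5, 5 and 2 without Com replicate 1 (against 1863) and 1, 1 and 1 without Com replicate 3 (against 1114). With replicates 2 and 3 only they were 7, 5 and 4 (against 2199). None of the 13 mitochondrially encoded mRNAs had an unadjusted p under 0.05, with pair medians of -1.10, 0.33 and 0.04. MALAT1 had 723.6, 848.2 and 746.0 FPKM in Mito-Lipo and 703.9, 540.7 and 503.4 FPKM in Com.

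Gilteritinib against DMSO is the same drug without mitoxantrone-liposome and shares no library with Com against Mito-Lipo, but its dose was 25 nM and not 20 nM, so the values are set side by side. There 687 genes were lower (3.7%) and 234 higher (1.26%) at an unadjusted p under 0.05. The immediate early median was -0.11 there and -0.46 between Com and Mito-Lipo, the STAT5 target median -0.09 and -0.23, the cholesterol median -0.04 and -0.44, and the DNA replication median 0.01 and 0.18. Of the 1593 genes lower in Com, 1042 (65.4%) were also lower in Gilteritinib, against 59.8% of all genes tested. Of the 668 higher in Com, 317 (47.5%) were also higher in Gilteritinib, against 40.2% of all genes. The difference between the comparisons was tested in the same limma fit. It reached an adjusted p under 0.05 in 0 genes (0.0%) and an unadjusted p under 0.05 in 1375 (7.4%).

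**Figure D4:**
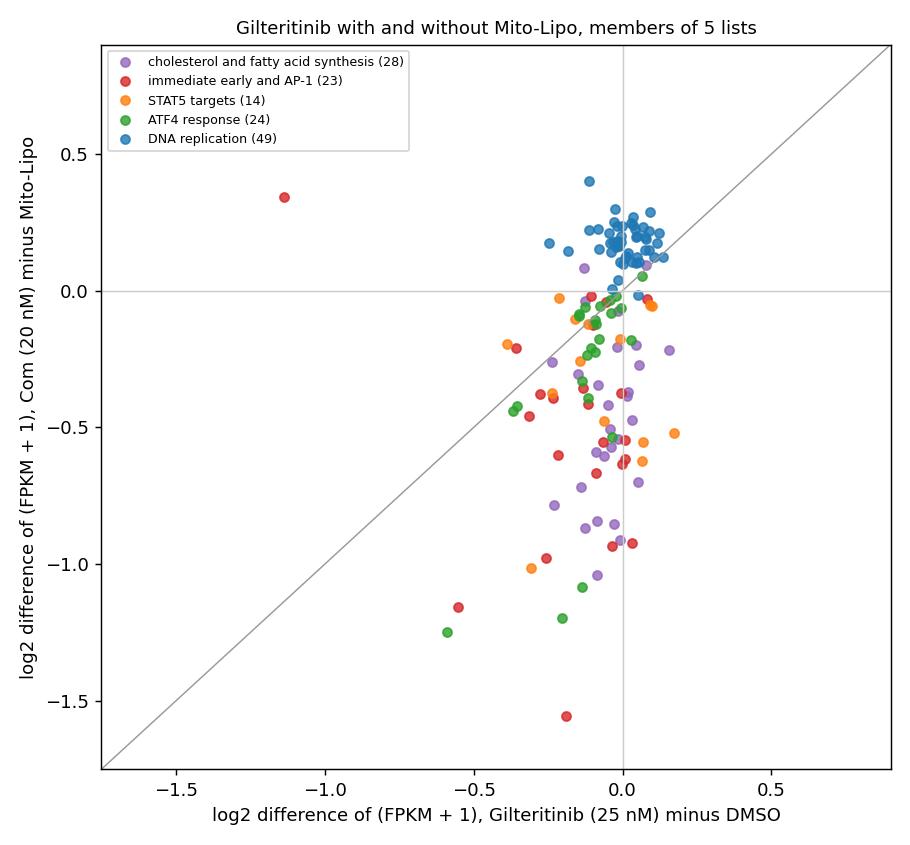
Log2 difference of FPKM + 1 for members of 5 lists, Gilteritinib (25 nM) minus DMSO on the x axis and Com (20 nM gilteritinib) minus Mito-Lipo on the y axis, with the line of equal values in grey. Most cholesterol genes lie below the line and near 0 on the x axis, with list medians of -0.04 and -0.44, and most replication genes lie above it, with medians of 0.01 and 0.18.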

How the data were processed

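RNA of MV4-11 cells was sequenced after amplification, in 12 libraries, 3 per group. The authors deposited 1 table of FPKM for 43876 gene identifiers. The submitters' processing notes name Bowtie 0.12.9, Cufflinks 2.1.1, HTSeq, DESeq2 and the mouse build mm10, although the identifiers are human Ensembl genes. Whether mm10 was the build aligned to is not given in the sources used here. FPKM already corrects for depth and gene length, and no further scaling is stated. Of the identifiers, 40169 were found in GENCODE 29 (GRCh38), the source of positions, gene types and exon lengths. Depth was recovered from the FPKM step that 1 fragment makes. With GENCODE lengths 70.44% of 189678 low values were whole fragments within 0.05, against about 10% by even spread, and depths were 31725003 to 41330717 fragments.

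Deposited FPKM were put on the scale log2(FPKM + 1) over 18574 genes (10506 protein-coding), those at 1 FPKM or more in 3 or more of the 12 libraries. Tests used limma 3.58.1 in R 4.3.3, with 1 mean per group, the replicate number as a block (6 residual degrees of freedom), a trend of variance with level, and p-values adjusted by Benjamini-Hochberg over all genes. The numbers were taken to pair the libraries because all 18 same-numbered pairs correlated above 0.1 in deviations from group means, from 0.165 to 0.657. No label says what a number stands for. A correlation above 0.1 cannot by itself show the pairing beyond replicate 1, which stood apart in every group. The other replicates then deviate the opposite way from their group means, and tend to correlate across groups whatever their numbers. Of the 12 libraries, 10 correlated best with their own number. On simulated data for Com against Mito-Lipo (18574 genes), 200 genes with a mean FPKM of at least 5 were changed per run. The blocked fit recovered 57.6% of genes changed by 0.5 and 91.2% of those changed by 1 on the log2 scale, with 7 false calls per run. The fit without the block recovered 27.6% and 77.2%, with 0.4 false calls. The simulation kept the replicate shifts fitted to the real data, so it does not test the pairing. Recovery of genes at lower FPKM was not measured.

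The comparison and the gene lists were chosen with earlier results of these data known. Genes were named by rule: those with an adjusted p under 0.05, the 10 protein-coding genes per direction with the smallest p (mean FPKM of at least 5, same direction in all 3 pairs), up to 2 members per list with an unadjusted p under 0.05, and the genes that the study names; some of the genes so named are not reported here. Others, such as FOSB, EGR3, PIM1, CISH, HMGCS1, LYZ, MCM4, PCNA, DSCC1 and HIST1H1B, were named after their values were seen. Promoter windows came from RefSeq (GRCh38.p14), of which the 250 bases before each start were searched on both strands. A gene counted as holding a motif if any of its listed starts did. The printed window is that of the listed start with the most matches. Alternatives set at the outset were no replicate block, a smaller pseudocount (0.1), all genes without the filter, a minimum mean of 5 FPKM, 2 other scalings, no trend, only the 6 libraries compared, each library left out, replicates 2 and 3 only, and a log2 limit of 1. Chosen after seeing the data were replicate 1 as a batch term, protein-coding genes only, and voom on recovered fragments.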

Additional observations from a re-analysis of the deposited data

Results flagged for a closer look

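In 12 of the 68 genes named and tested, all 3 pairs of Com and Mito-Lipo went one way and all 3 pairs of Gilteritinib and DMSO the opposite way. The share among all genes was not counted. Some of these 68 were named for a same direction in all 3 pairs of Com and Mito-Lipo, so the 12 have no background to be read against. The difference between the comparisons was tested for each gene in limma, and the adjusted p of these 12 was 0.524 to 0.729, so none passed the threshold. On the log2 scale the difference was -1.33 for the chemokine CCL2, -0.79 for the integrin ITGAM, -0.60 for the receptor CSF1R, -0.56 for GBP2, -0.55 for the tetraspanin CD82, -0.31 for the invariant chain CD74 and -0.15 for AKT2. These genes were lower in Com than in Mito-Lipo and higher in Gilteritinib than in DMSO, there by 0.02 for ITGAM to 0.24 for CCL2. The difference was 2.37 for HIST2H3A, 1.43 for HIST1H3I, 0.38 for NREP, 0.32 for the clamp loader subunit RFC3 and 0.20 for PIK3R4, which went in the opposite sense. Gilteritinib minus DMSO ran from -0.02 for RFC3 to -1.10 for HIST2H3A among these. The gilteritinib dose was 20 nM in Com and 25 nM alone, and this difference in dose cannot be told apart from the presence of mitoxantrone-liposome.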

How the results depend on the processing

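Of 1216 values of named genes under the alternatives, 1059 kept their direction and side of the threshold, 140 passed it anew, 14 no longer passed it and 3 turned. Those 3 were FLT3, which lay between -0.063 and 0.102 with 1 library left out, below 0 without replicate 1 of Com or of Mito-Lipo, and at -0.113 with replicates 2 and 3 only. Among list medians, 26 of 537 had the other sign, in 10 lists, and the immediate early, STAT5, ERK, cholesterol, ATF4, glycolysis, NF-kB, replication and nucleotide lists were not among them. The number of genes with an adjusted p under 0.05 was 2 as reported, 0 without the replicate block, 1 with a pseudocount of 0.1, 4 with a mean FPKM of at least 5, 4 after quantile normalization, 4 without the trend, 0 with only the 6 libraries compared, 812 with replicates 2 and 3 only, 11 with replicate 1 as a batch term, 94 over protein-coding genes, 137 by voom on recovered fragments and 0 with a log2 limit of 1. Leaving out 1 library gave 0 to 252, with 32 without Com replicate 1, 252 without Mito-Lipo replicate 1 and 0 without any of the other 4. The number with an unadjusted p under 0.05, 2261 as reported, was 1027 without the replicate block, 4081 without a filter, 1265 with a mean FPKM of at least 5 (fewer genes tested), 4052 with replicates 2 and 3 only and 1293 to 2860 with 1 library left out. Genes with a difference between the comparisons at an adjusted p under 0.05, 0 as reported, were 1 without a filter, 1 by voom, 408 with replicates 2 and 3 only and 0 to 68 with 1 library left out, the highest without Mito-Lipo replicate 1. The cause of these shifts was not tested, apart from the numbers of genes or libraries that the alternatives themselves change. Depth does not limit FOS or ARID3B, which rest on at least 2460 and 1390 fragments in each of the 6 libraries.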
